A study of Mus musculus with 17 samples.

Results

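The cytochrome P450 2C (Cyp2c) genes Cyp2c29, Cyp2c37, Cyp2c38, Cyp2c39, Cyp2c40, Cyp2c44, Cyp2c50, Cyp2c54, Cyp2c55, and Cyp2c70 were examined in mouse liver. They were followed through every probe that carries 1 of these 10 symbols in the deposited log2 ratio table. There were 11 such probes, for 9 of 19358 genes tested, among 41174 non-control probes of the array, and no probe carried the symbol Cyp2c50. The family was chosen by the difference between HFD+1B and chow livers, in which Cyp2c54 and Cyp2c37 were among the largest falls, so that difference is described below without a test. The tested comparisons share the chow arrays, the HFD+1B arrays, or both with it. A family chosen in this way is favored in advance to read high on the chow arrays and low on the HFD+1B arrays. The p-values and the shares of all probes given below do not allow for this choice.

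The livers came from 17 male mice fed for 3 months. Chow mice (n = 4) were fed chow and received maltose by gavage, 1B mice (n = 4) were fed chow and received ethanol at 5 g/kg, HFD mice (n = 4) were fed a high-fat diet and received maltose, and HFD+1B mice (n = 5) were fed the same high-fat diet and received the same dose of ethanol. The mice were killed 9 hours after gavage. The sample labels give the strain as C57BL/6N and the methods as C57BL/6J. Each liver was hybridized in Cy5 on 1 Agilent array against a common Cy3 reference, labelled as assorted mouse RNA, and all values below are log2 ratios of liver to that reference unless stated otherwise. A log2 ratio of 1 is a 2-fold higher signal in the liver than in the reference.

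CYP2C enzymes are heme monooxygenases of the endoplasmic reticulum, abundant in hepatocytes, that take electrons from the P450 reductase Por and oxidize drugs, steroids, and fatty acids. Several of them convert arachidonic and linoleic acid into epoxides and hydroxylated lipids. Their genes are known to be driven by hepatocyte factors such as HNF4 alpha and by the xenobiotic receptors CAR (Nr1i3) and PXR (Nr1i2), and to fall in inflamed liver. In the RefSeq annotation of GRCm38.p6, 15 protein-coding Cyp2c genes lie on chromosome 19, and 9 of them are covered by the probes described here. Cyp2c37, Cyp2c54, Cyp2c50, and Cyp2c70 follow each other in that order, and Cyp2c44, which RefSeq now names Cyp2c23, is the last gene of the row.

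The genes of this family resemble each other, and 3 of the 11 probes cover the corresponding stretch of 3 genes. These are shown because the signals of the 3 genes went different ways. Capitals mark the 30 bases that all 3 probes share, of 43 that could be aligned in all 3 without gaps.
Cyp2c54: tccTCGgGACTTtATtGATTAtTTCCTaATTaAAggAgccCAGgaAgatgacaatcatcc
Cyp2c38: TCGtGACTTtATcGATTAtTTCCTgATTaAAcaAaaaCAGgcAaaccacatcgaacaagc
Cyp2c40: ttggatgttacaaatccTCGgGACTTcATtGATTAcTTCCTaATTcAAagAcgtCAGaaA
The probes of Cyp2c54 and Cyp2c40 matched at 38 of 46 aligned bases with a longest common run of 12 bases, and those of Cyp2c54 and Cyp2c38 at 40 of 57 bases with a run of 11. In all other pairs of probes of different members the longest common run was 8 bases or less. Whether transcripts of a related gene bound to any of these probes was not tested. The genes Cyp2c67, Cyp2c68, and Cyp2c69, neighbors of Cyp2c40, have no probe by symbol, so a part of the Cyp2c40 signal that comes from them cannot be told apart here.

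RefSeq promoters, 250 bases before to 50 bases after the start of a transcript, were at hand for 8 of the 10 genes. The letters CAAAGTCCA, the core of an HNF4-type element, and the shorter CAAAGTC, which is contained in them, were searched on both strands of the 250 bases before the start. The motif was picked after the sequences had been looked at. Windows of the 5 promoters that hold either motif are shown, because the first 3 belong to genes whose signals moved together in the comparisons below. Capitals mark the motif, and all windows are written on the strand of the gene.
Cyp2c29 (GRCm38.p6, chr19:39286961-39287007, plus strand): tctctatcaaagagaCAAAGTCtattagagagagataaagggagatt
Cyp2c39 (chr19:39347217-39347263, plus strand): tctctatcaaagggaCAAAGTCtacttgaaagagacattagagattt
Cyp2c37 (chr19:39992293-39992339, plus strand): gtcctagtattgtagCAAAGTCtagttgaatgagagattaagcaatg
Cyp2c40 (chr19:39812826-39812874, minus strand): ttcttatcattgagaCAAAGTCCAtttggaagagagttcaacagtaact
Cyp2c70 (chr19:40187317-40187365, minus strand): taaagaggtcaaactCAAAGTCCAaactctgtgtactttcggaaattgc
CAAAGTCCA was held by 0.384% and CAAAGTC by 3.84% of 32851 promoters searched the same way. Neither was found in the promoters of Cyp2c38, Cyp2c50, and Cyp2c55. A match is a run of letters and not a measured binding site.

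All 11 probes were well above background in Cy5 on 17 of 17 arrays, none was saturated, and all were tested. Unflagged spots were present on 17 arrays for 8 probes and on 16 arrays for 3 probes. The Cyp2c29 spot of HFD mouse 1, the Cyp2c37 spot of HFD+1B mouse 5, and the spot of the dimmer Cyp2c40 probe in 1B mouse 4 carried an outlier mark of the scanner software and were left out of the fit. The raw Cy5 signal differed widely among the probes. Cyp2c29 was the brightest, at 4218 to 73953 intensity units, and the dimmer Cyp2c38 probe, at 52 to 148, and Cyp2c55, at 51 to 192.5, lay near the median of all spots of an array, which was 63 to 158. The offset of the background correction draws the differences of such dim probes toward 0.

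Before the family, the arrays themselves need a description, because the HFD arrays stood apart. The mean of 3 probes of ribosomal RNA, relative to the chow mean, was -4.08 to -2.41 in the 4 HFD livers. It was -0.27 to 0.21 in chow livers, -1.47 to -0.31 in 1B livers, and -1.42 to 0.64 in HFD+1B livers. All 3 probes were called lower in HFD than in chow and higher in HFD+1B than in HFD, and none was called between HFD+1B and 1B. The part of this difference in the results that involve the HFD arrays was not tested. All 12 hepatocyte markers with a tested probe were above background on every array. Over the 6 of them with a value on all 17 arrays, their mean relative to chow was -0.67 to -0.23 in HFD, -0.53 to -0.09 in HFD+1B, and -0.12 to 0.11 in 1B. Over 6 stellate cell markers it was 0.52 to 0.82 in HFD, 0.19 to 1.24 in HFD+1B, and -0.02 to 0.08 in 1B. Over 7 macrophage and Kupffer cell markers it was 0.28 to 0.53 in HFD livers and 0.25 to 0.67 in HFD+1B livers, and over 5 markers of sinusoidal endothelium 0.28 to 0.50 and 0.14 to 0.43. The 1B livers were at -0.16 to 0.06 and 0.15 to 0.34 for these lists. The raw summed Cy5 signal of the 12 hepatocyte markers was 617573 to 679910 in the chow group, 572865 to 792012 in the 1B group, 252274 to 756475 in the HFD group, and 594868 to 736432 in the HFD+1B group, and that of 7 stellate cell markers was 3676 to 5643, 3089 to 6361, 1887 to 6059, and 5278 to 12922 in the same order. The part of these lists in the Cyp2c values was not tested. In whole liver, fewer cells of a type and less RNA per cell cannot be told apart.

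**Figure D1:**
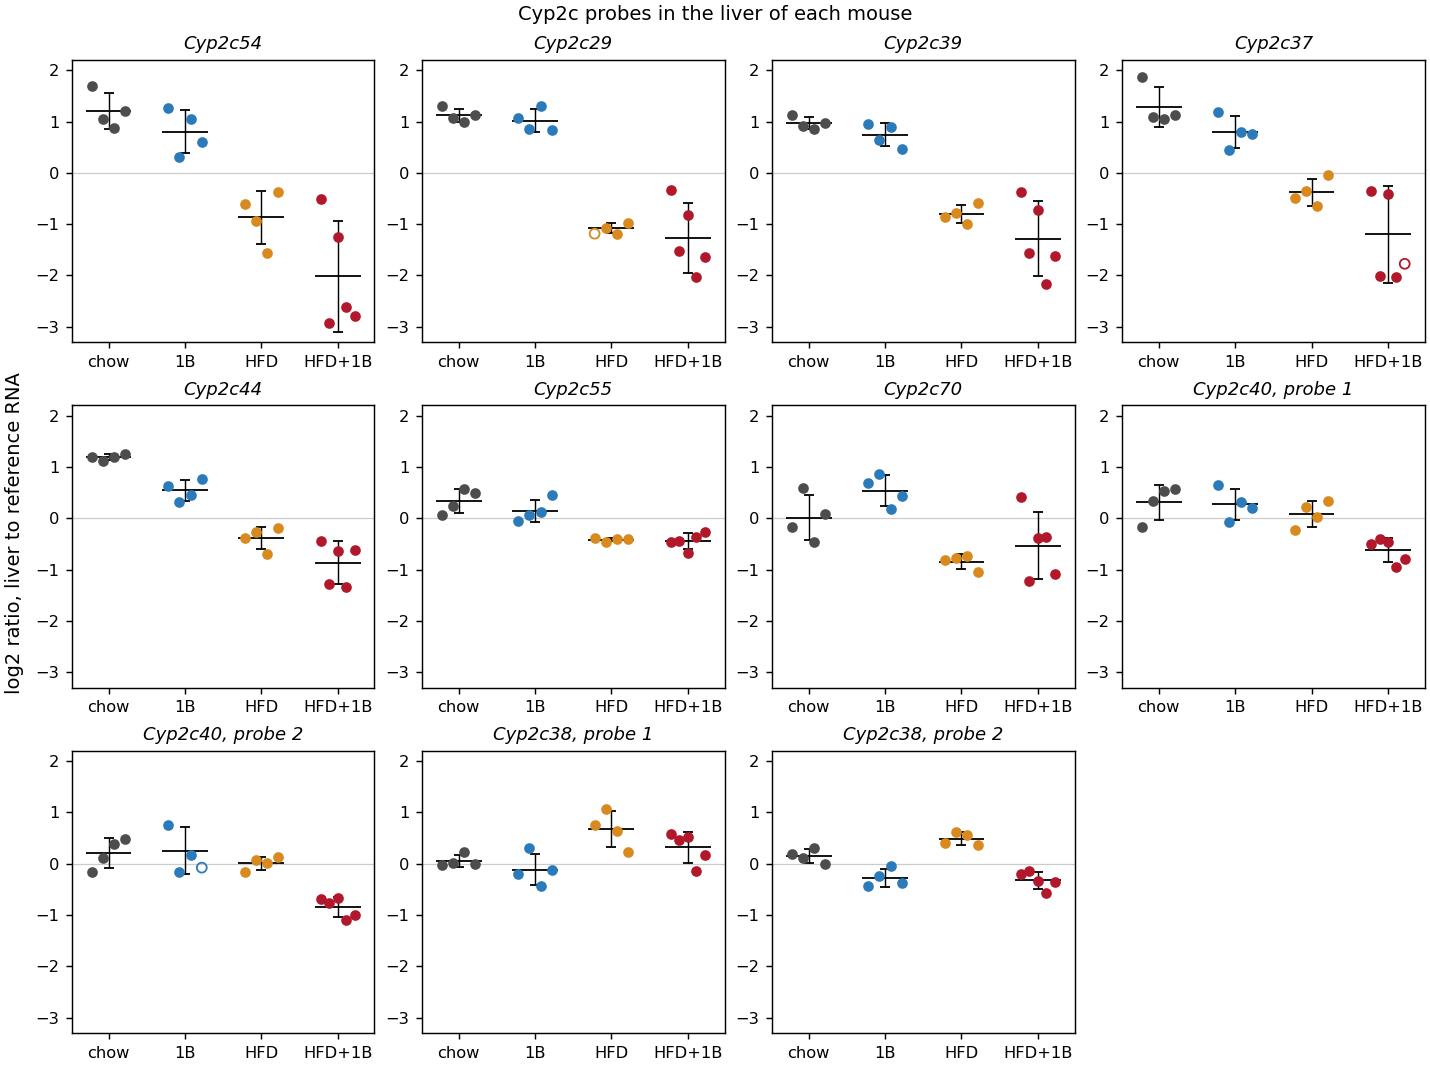
The log2 ratio of liver to reference (y axis) of the 11 Cyp2c probes in each of the 17 mice by group (x axis), with 1 filled point per mouse, open points for outlier spots left out of the means, and lines for the group mean ± SD; probe 1 is the brighter probe of a gene. In the panels of Cyp2c54, Cyp2c29, Cyp2c39, Cyp2c37, Cyp2c44, and Cyp2c55 all chow and 1B points lie above all HFD and HFD+1B points. In the panels of Cyp2c70, Cyp2c40, and Cyp2c38 they do not.

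The question of the HFD comparison is what the diet alone did in mice that received maltose. The genes of 6 probes were lower in HFD than in chow livers at an adjusted p of 0.05 or less (limma, Benjamini-Hochberg over all 34664 probes tested): Cyp2c29, Cyp2c54, Cyp2c39, Cyp2c37, Cyp2c44, and Cyp2c55. The brighter probe of Cyp2c38 was higher. Among all probes tested, 6.1% were called lower and 3.88% higher in this comparison. The median difference of the 11 probes was -0.86, whereas that of all genes tested was 0.00.

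Cyp2c29, an epoxygenase of arachidonic acid, was the brightest of the family. The log2 ratio of Cyp2c29 was 1.30, 1.08, 1.00, and 1.12 in chow and -1.07, -1.18, and -0.98 in the 3 HFD livers with a value. The outlier spot of the remaining HFD liver read -1.18. No HFD liver came near a chow liver, and the difference was -2.20 ± 0.28 (SE; 4.61-fold lower, adjusted p = 0.000218, limma). Cyp2c54, which oxidizes arachidonic and linoleic acid, read 1.70, 1.06, 0.88, and 1.20 in chow and -0.60, -0.93, -1.57, and -0.37 in HFD. The groups were apart here too, although the livers of a group differed more, and the difference was -2.08 ± 0.43 (4.22-fold lower, adjusted p = 0.00558, limma).

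Cyp2c39, known to hydroxylate retinoic acid, read 1.12, 0.92, 0.85, and 0.98 in chow and -0.86, -0.78, -0.99, and -0.59 in HFD, a difference of -1.77 ± 0.27 (3.42-fold lower, adjusted p = 0.000676, limma). Cyp2c37, another arachidonic acid oxidase, read 1.87, 1.09, 1.05, and 1.13 in chow and -0.50, -0.35, -0.64, and -0.04 in HFD, a difference of -1.67 ± 0.34 (3.17-fold lower, adjusted p = 0.00542, limma). In both genes the chow liver with the lowest value was well above the highest HFD liver. Cyp2c44, an epoxygenase found outside the liver as well, had the tightest chow group of all members, at 1.19, 1.12, 1.20, and 1.26, and read -0.38, -0.27, -0.69, and -0.19 in HFD, a difference of -1.58 ± 0.18 (2.98-fold lower, adjusted p = 7.13e-05, limma). Cyp2c55 was dim in all livers, at 0.07, 0.24, 0.58, and 0.49 in chow and -0.38, -0.47, -0.41, and -0.40 in HFD. The 4 HFD livers lay below every chow liver, by 0.76 ± 0.12 on average (1.69-fold lower, adjusted p = 0.00123, limma). In the deposited log2 ratios, to which this offset was not applied, they read -1.18, -0.78, -0.50, and -0.69, and the difference was -1.16.

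On all slides that held both groups, 3 for most genes and 2 for Cyp2c29, the HFD values of these 6 genes were below the chow values, with the smallest difference of -0.45 for Cyp2c55. Cyp2c70, which makes muricholic acids and so shapes the bile acid pool of the mouse, read -0.17, 0.60, -0.46, and 0.09 in chow and -0.81, -0.78, -0.74, and -1.05 in HFD. The groups did not overlap, but the chow livers spread widely, and the difference of -0.86 ± 0.28 did not pass the threshold (adjusted p = 0.0612, limma; 0.0251 with slide as a block). The probes of Cyp2c40, also an arachidonic acid oxidase, did not separate the groups. The brighter one read -0.18, 0.33, 0.53, and 0.57 in chow and -0.24, 0.22, 0.03, and 0.33 in HFD, and its difference of -0.23 had a 95% confidence interval of -0.61 to 0.16.

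The brighter Cyp2c38 probe went the other way. It read -0.02, 0.02, 0.24, and 0.00 in chow and 0.75, 1.06, 0.65, and 0.23 in HFD, where the lowest HFD liver lay just below the highest chow liver. The difference was 0.62 ± 0.18 (1.53-fold higher, adjusted p = 0.0422, limma). The dimmer Cyp2c38 probe read 0.40, 0.63, 0.55, and 0.36 in HFD and 0.20, 0.12, 0.30, and -0.01 in chow, a difference of 0.33 ± 0.11 that did not pass the threshold (adjusted p = 0.0654, limma), although the groups did not overlap. This probe was called with slide as a block (adjusted p = 0.0119, limma), without background subtraction (0.0486), and in the deposited log2 ratios (0.0489). The call of the brighter probe was lost in 11 of 29 alternative settings, each with the difference above 0.

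**Figure D2:**
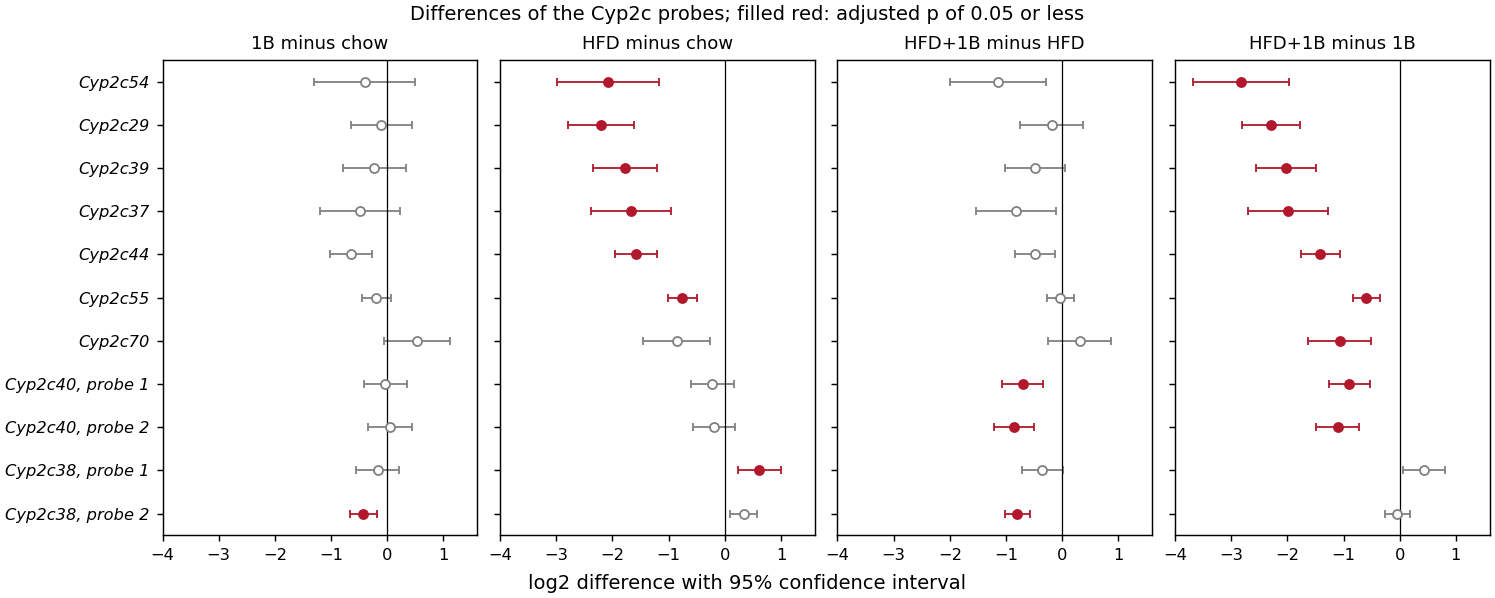
The log2 difference of each Cyp2c probe (x axis) in 4 comparisons of groups, with 95% confidence intervals and filled red points for probes called by limma at an adjusted p of at most 0.05. The 2 diet comparisons, HFD minus chow and HFD+1B minus 1B, hold most filled points, 7 and 9 of 11, against 1 of 11 in 1B minus chow.

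The second diet comparison, HFD+1B minus 1B, asks what the diet did in mice that all received ethanol. Its difference is taken between these 2 groups, while the estimate of the spread comes from all 17 arrays. Here 9 of 11 probes, those of 8 genes, were lower in HFD+1B and none was higher, against 4.71% lower and 5.31% higher among all probes tested. The median difference of the 11 probes was -1.10, beside -0.01 for all genes tested. As given above, the ribosomal RNA probes were not called in this comparison.

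The largest difference was that of Cyp2c54. It read 1.27, 0.32, 1.04, and 0.60 in 1B and -0.52, -2.92, -1.24, -2.62, and -2.79 in HFD+1B, a difference of -2.83 ± 0.41 (7.09-fold lower, adjusted p = 0.000268, limma). Within the 4 slides that held both groups its difference was -3.96 to -1.79. Cyp2c29 read 1.07, 0.86, 1.31, and 0.84 in 1B and -0.34, -1.53, -0.81, -2.03, and -1.63 in HFD+1B, which is 4.88-fold lower (difference -2.29 ± 0.24, adjusted p = 2.15e-05, limma). No HFD+1B liver reached the lowest 1B liver in either gene.

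Cyp2c39 read 0.96, 0.64, 0.89, and 0.48 in 1B and -0.36, -1.56, -0.72, -2.17, and -1.62 in HFD+1B, and Cyp2c37 read 1.19, 0.44, 0.80, and 0.76 in 1B and -0.35, -2.02, -0.40, and -2.02 in the 4 HFD+1B livers with a value. The outlier spot of Cyp2c37 in HFD+1B mouse 5 read -1.77. The differences were -2.03 ± 0.25 for Cyp2c39 and -1.99 ± 0.34 for Cyp2c37 (adjusted p = 8.87e-05 and 0.00116, limma). Cyp2c44 read 0.63, 0.31, 0.46, and 0.78 in 1B and -0.44, -1.29, -0.63, -1.34, and -0.63 in HFD+1B, a difference of -1.41 ± 0.17 (adjusted p = 4.9e-05, limma). These 3 genes, too, had every HFD+1B liver below every 1B liver. Smaller falls were called for Cyp2c70, at -1.07 ± 0.27 (adjusted p = 0.0154, limma), and Cyp2c55, at -0.59 ± 0.12 (adjusted p = 0.00344, limma). The Cyp2c70 call was lost without 1B mouse 2, where the difference was -0.96, and the Cyp2c55 call with the Cy5 signal alone (adjusted p = 0.0713, limma). In HFD+1B mouse 1 Cyp2c70 read 0.42, inside the 1B range of 0.17 to 0.86, so that this gene alone among the called ones overlapped between the groups.

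Cyp2c40 was lower in this comparison, which it was not by the test in HFD against chow. Its brighter probe read 0.65, -0.08, 0.32, and 0.21 in 1B and -0.50, -0.41, -0.46, -0.95, and -0.78 in HFD+1B (difference -0.90 ± 0.17, adjusted p = 0.00279, limma), and its dimmer probe gave -1.10 ± 0.18 (adjusted p = 0.000968, limma). With the Cy5 signal alone the dimmer Cyp2c40 probe was not called. The Cyp2c38 probes differed by 0.43, with a 95% confidence interval of 0.06 to 0.80, and by -0.04, with an interval of -0.27 to 0.18. Neither passed the threshold.

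HFD and 1B livers share no array with the contrast by which the family was chosen. Set against each other, 5 of 11 probes were at least 2-fold lower in HFD than in 1B livers, compared with 1.28% of all probes tested, and the median of the 11 was -0.93. These 2 groups differ in both diet and gavage, and no test was made. The 5 probes were those of Cyp2c29, Cyp2c54, Cyp2c39, Cyp2c70, and Cyp2c37.

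**Figure D3:**
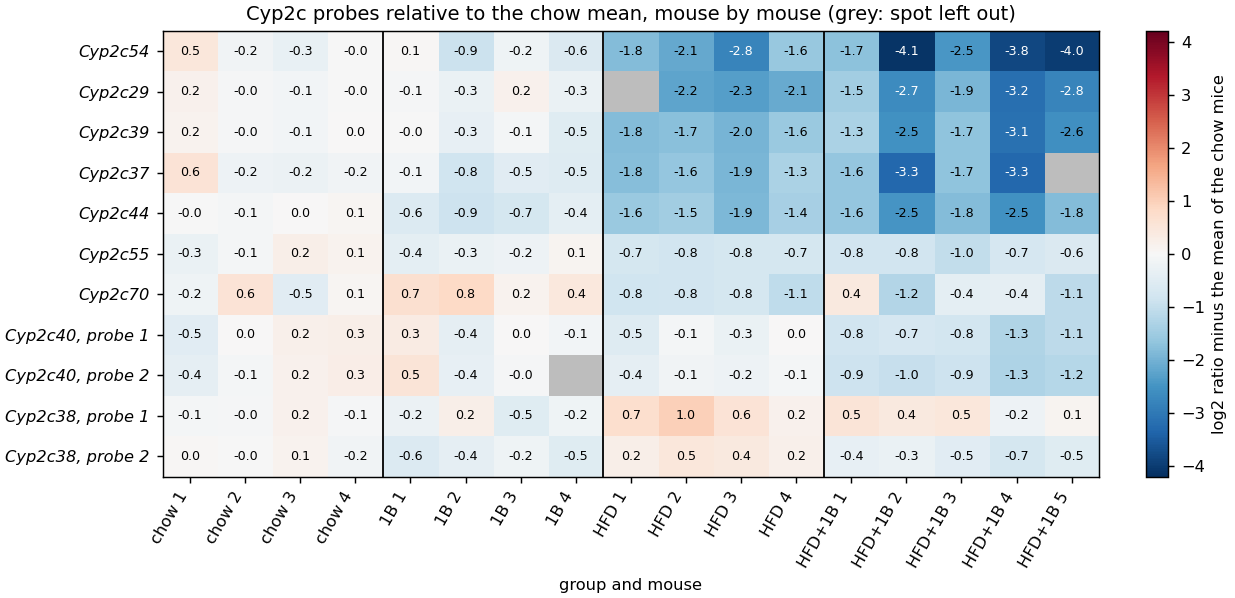
The log2 ratio of each Cyp2c probe (rows) in each mouse (columns) minus the mean of the chow mice, in color and as printed values, with grey for outlier spots left out. The upper 5 rows are blue in every HFD and HFD+1B mouse that has a value, from -4.1 to -1.3 on this scale (2 cells, Cyp2c29 in HFD mouse 1 and Cyp2c37 in HFD+1B mouse 5, are grey), and the bottom rows, Cyp2c38, are red in the HFD mice.

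A single ethanol gavage on chow was followed by few called differences in the family. Only the dimmer Cyp2c38 probe was called, lower in 1B than in chow by 0.43 ± 0.11 (1.34-fold, adjusted p = 0.0395, limma), and no member was higher, where 1.78% of all probes were called lower and 1.84% higher. It read -0.44, -0.24, -0.04, and -0.37 in 1B, all below the 4 chow livers given above, and the call was lost in 7 of the 17 fits that left out 1 mouse (without chow mouse 1, 2, or 3, 1B mouse 1, 2, or 4, or HFD+1B mouse 3). The brighter Cyp2c38 probe gave -0.17 with an interval of -0.56 to 0.22. Cyp2c44 was lower by 0.65 ± 0.18, with no overlap of the groups, and missed the threshold (adjusted p = 0.0508, limma). With median centring in place of loess, Cyp2c44 was called in this comparison and Cyp2c38 was not. Cyp2c44 was also called over probes above background on all arrays and in the unadjusted Tukey test. The same held without HFD mouse 3 and without HFD+1B mouse 1, 2, or 4. Cyp2c70 had a difference of 0.52, with an interval of -0.07 to 1.12. For the genes with the largest falls from chow to HFD, the intervals of the ethanol difference were -0.65 to 0.44 (Cyp2c29), -0.80 to 0.34 (Cyp2c39), -1.20 to 0.22 (Cyp2c37), -1.30 to 0.50 (Cyp2c54), and -1.02 to -0.27 (Cyp2c44). A fall of over 2-fold was within the interval for Cyp2c37, Cyp2c54, and Cyp2c44. Acute-phase genes, which hepatocytes raise in inflammation, were higher in the 1B group than in chow, 10 of 26 by the test with a list median of 0.92. Over 20 of these genes, 1B mouse 3 averaged only 0.33 above chow, below the highest chow liver at 0.44. 1B mice 1, 2, and 4 averaged 2.34, 1.71, and 1.78. In HFD livers 3 of 26 were higher than in chow, with a median of 0.60. The HFD livers were uneven: over 20 acute-phase genes, mouse 3 averaged 2.22 above chow. Mice 1, 2, and 4 averaged 0.49, 0.40, and 0.34, next to 0.44 for the highest chow liver. HFD mouse 3 also had the lowest HFD values of Cyp2c54, Cyp2c37, Cyp2c39, and Cyp2c44. It was not the lowest for Cyp2c55, Cyp2c40, or Cyp2c38, and was the highest for Cyp2c70. In HFD mouse 3 the means of 3 ribosomal RNA probes (-4.08) and of 6 hepatocyte markers (-0.67) were also the lowest of the HFD livers. Those of 6 stellate cell markers (0.82) and 7 macrophage and Kupffer cell markers (0.53) were the highest, and that of 5 sinusoidal endothelium markers (0.28) was the lowest. The part of the acute-phase genes and of these other lists in the Cyp2c values was not tested.

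On HFD, ethanol was followed by lower signals of Cyp2c40 and of the dimmer Cyp2c38 probe. Of the 11 probes, 3 were lower in HFD+1B than in HFD and none was higher, whereas 8.01% of all probes were called lower and 9.92% higher, and the median of the 11 probes was -0.48, beside 0.00 for all genes tested. The brighter Cyp2c40 probe fell by 0.71 ± 0.17 (adjusted p = 0.00894, limma), and every HFD+1B liver lay below every HFD liver. This call was lost with median centring (-0.47, adjusted p = 0.134, limma), with the Cy5 signal alone (adjusted p = 0.0599, limma), and in a Tukey test with Benjamini-Hochberg adjustment. The dimmer one read -0.17, 0.07, 0.01, and 0.13 in the HFD livers. With ethanol it read -0.68, -0.77, -0.67, -1.10, and -1.01, again below every HFD liver, and fell by 0.86 ± 0.17 (adjusted p = 0.00228, limma). Its call was lost with the Cy5 signal alone. The dimmer Cyp2c38 probe read -0.21, -0.14, -0.33, -0.57, and -0.35 in HFD+1B, below all HFD livers, a fall of 0.80 ± 0.11 (adjusted p = 0.000116, limma). The brighter Cyp2c38 probe read 0.58, 0.46, 0.53, -0.15, and 0.18 and differed by -0.35, with an interval of -0.72 to 0.01, so the 2 probes of this gene gave different calls. The ribosomal RNA probes rose from HFD to HFD+1B by a median of 3.48, and their part in these differences was not tested.

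Among the genes that were low on HFD, the HFD+1B livers were uneven. Mice 1 and 3 had the highest log2 ratios of the 5 for Cyp2c54, Cyp2c29, Cyp2c39, and Cyp2c37. For Cyp2c54 they read -0.52 and -1.24, within the range of the HFD livers, -1.57 to -0.37, and the other 3 mice read -2.92, -2.62, and -2.79, below all HFD livers. The next differences of HFD+1B from HFD use every liver with an unmarked spot, which for Cyp2c37 were 4 of the 5 HFD+1B livers. They were -1.15 ± 0.41 for Cyp2c54 (adjusted p = 0.0580, limma), -0.82 ± 0.34 for Cyp2c37 (0.103), -0.48 ± 0.17 for Cyp2c44 (0.0545), -0.48 ± 0.25 for Cyp2c39 (0.208), and -0.19 ± 0.27 for Cyp2c29 (0.681). None of them passed the threshold. Cyp2c44 passed it without background subtraction (adjusted p = 0.0495, limma) and over probes above background on all arrays (adjusted p = 0.0464, limma). Cyp2c54 passed it with slide as a block (adjusted p = 0.0457, limma), without background subtraction (0.0431), over probes above background on all arrays, and in the deposited log2 ratios. Cyp2c37 passed it when the outlier spots were kept (adjusted p = 0.0480, limma). After mouse 1 of the HFD+1B group was left out the count of probes called was 7, without HFD+1B mouse 3 it was 6, and without HFD mouse 3 it was 5, in place of 3. The mice are kept together in all other values here, since the labels give no reason to separate them. Other lists were uneven among the same mice. The mean of 20 acute-phase genes above chow was 2.96 and 2.49 in mice 1 and 3 and 1.62, 2.41, and 2.07 in mice 2, 4, and 5. In the same order, that of 6 stellate cell markers was 0.19 and 0.59 against 0.79, 1.24, and 1.00. It was -0.63 and -0.51 against -0.89, -1.22, and -0.82 over 12 pericentral genes. Over 30 other P450 genes it was -0.38 and -0.28 against -0.50, -0.65, and -0.47. Both lists hold Cyp1a2 and Cyp2e1. Over 6 hepatocyte markers it was -0.09 and -0.35 against -0.39, -0.53, and -0.33. The part of all these lists in the Cyp2c values was not tested.

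Whether the effect of ethanol differed between the diets was tested as the interaction. No member was called in limma, where 1.6% and 2.5% of all probes were called lower and higher. An unadjusted p of 0.05 or less in limma was reached by 3 of 11 probes. The share of all probes at that unadjusted threshold is not given here, so this count has nothing to be set against. The nearest was the dimmer Cyp2c40 probe, with an interaction of -0.90 ± 0.25 (adjusted p = 0.0529, limma), followed by the brighter one with -0.67 ± 0.25 (0.139) and the dimmer Cyp2c38 probe with -0.38 ± 0.15 (0.173). With slide as a block, the dimmer probes of Cyp2c40 and Cyp2c38 were called, both at an adjusted p of 0.0476 in limma. For Cyp2c29 and Cyp2c44 the intervals were -0.87 to 0.70 and -0.35 to 0.68.

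The contrast that chose the family is given for completeness. From chow to HFD+1B, 10 of 11 probes had a difference below 0, and 6 were at least 2-fold lower, where 0.966% of all probes were. The differences were -3.23 for Cyp2c54, -2.49 for Cyp2c37, -2.39 for Cyp2c29, -2.26 for Cyp2c39, -2.06 for Cyp2c44, -1.05 and -0.93 for the Cyp2c40 probes, -0.79 for Cyp2c55, and -0.55 for Cyp2c70. The Cyp2c38 probes gave 0.26 and -0.47. The value nearest the 2-fold line on the inside was that of the dimmer Cyp2c40 probe, and on the outside that of the brighter probe of the same gene.

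A second probe of Cyp2c37 exists in the scanner files. It carries the same accession but has no row in the log2 ratio table, and it is therefore no member. Its spot was marked as an outlier on 10 of 17 arrays, leaving 2 chow, 1 1B, 3 HFD, and 1 HFD+1B values. With all 17 spots kept, its differences were -1.60 for HFD minus chow, -2.06 for HFD+1B minus 1B, -0.79 for HFD+1B minus HFD, and -0.34 for 1B minus chow, next to -1.65, -2.11, -0.94, and -0.48 for the member probe with its outlier spot kept as well. The 1B and HFD+1B groups have 1 unmarked value each, so no test of this probe is given.

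**Figure D4:**
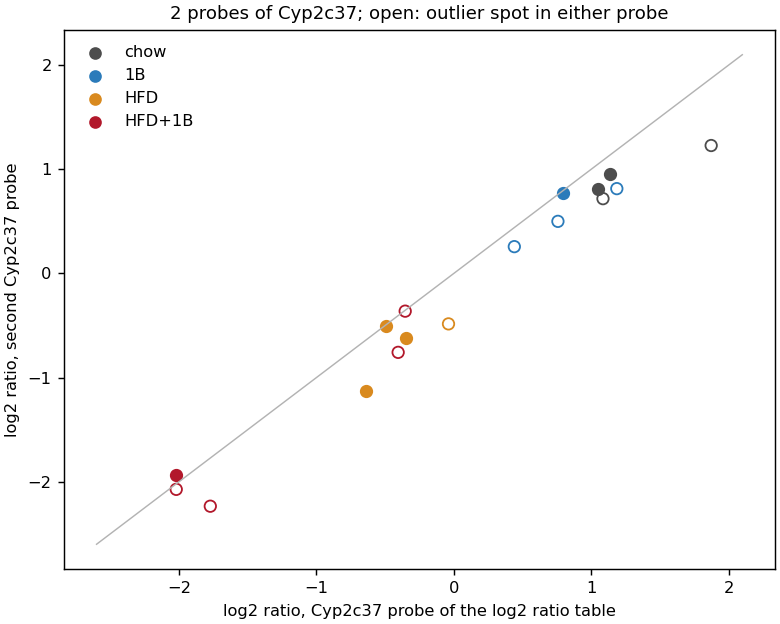
The log2 ratio of the second Cyp2c37 probe (y axis) against the Cyp2c37 probe of the log2 ratio table (x axis), with 1 point per mouse, open where the spot of either probe was an outlier, and a line of equal values. All chow and 1B points lie above 0 on both axes and all HFD and HFD+1B points below 0.

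Genes that work with CYP2C enzymes were examined as a list of 11. Of these partners (the reductase Por, cytochrome b5 and its reductase, heme synthesis, and epoxide hydrolases), none was called in HFD against chow or in HFD+1B against 1B, with medians of -0.03 and 0.14. Among all probes 6.1% were lower and 3.88% higher in the first comparison, so that 0 of 11 is near that share. Por itself differed by -0.62 from chow to HFD (adjusted p = 0.0748, limma) and by 0.15 from 1B to HFD+1B. In 1B against chow, 4 of 11 were lower, among them Alas1, the rate-limiting enzyme of heme synthesis, by 1.89 (3.70-fold, adjusted p = 0.000202, limma), Cyb5a, and Alad. From HFD to HFD+1B, 4 were lower, with Alas1 at -0.84, and 2 were higher, Por at 0.71 and the heme oxygenase Hmox1 at 0.68. Among all probes 1.78% were lower in 1B against chow, and 8.01% were lower and 9.92% higher in HFD+1B against HFD.

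Of 23 known or proposed regulators of Cyp2c genes, 1 was lower in HFD than in chow, Foxa3 at -1.30 (adjusted p = 0.0136, limma), and none was higher, a share no larger than that of all probes. Hnf4a read -0.36 in that comparison (adjusted p = 0.149) and -0.08 in HFD+1B against 1B (0.842). From 1B to HFD+1B, 5 were lower, with Onecut1 at -1.61 and Cebpa at -1.21, and 3 were higher, with Cebpb at 1.67 (adjusted p = 8.87e-05, limma). Ethanol was accompanied by lower Nr0b2, the corepressor SHP, at -1.44, Ppara at -1.06, and Nr1i3 at -0.86 on chow, and by 8 lower regulators on HFD, with Ppara at -1.39, Cebpa at -1.38, and Nr1i3 at -1.37. Cebpb was the only regulator called higher there. Among all probes 1.78% were lower in 1B against chow, 8.01% were lower in HFD+1B against HFD, and 4.71% were lower and 5.31% higher in HFD+1B against 1B.

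Among 36 other P450 genes of families 1 to 3, 10 were lower and 2 higher in HFD than in chow, and 12 were lower and 2 higher in HFD+1B than in 1B, with medians of -0.21 and -0.19. Among all probes 6.1% were lower and 3.88% higher in the first comparison, and 4.71% and 5.31% in the second. The largest differences of these P450 genes were those of Cyp1a2, an oxidase of caffeine and estrogens, at -2.39 and -3.03, Cyp2a5 and Cyp2a4 at -2.02 and -1.88 in the first comparison, and Cyp2b10, a classical CAR target, at -1.88 in the second. Ethanol on HFD was accompanied by 9 lower genes, where 8.01% of all probes were lower. Among the 9 were Cyp2d13 at -1.34, Cyp2e1, which oxidizes ethanol, at -0.81, and Cyp3a25 at -0.80. In 1B against chow 3 were lower, with Cyp2a5 at -2.20 and Cyp2a4 at -2.13, and Cyp2b10 was higher at 1.75, where 1.78% of all probes were lower and 1.84% higher. Cyp2a4 and Cyp2a5 share most of their sequence, and their probes may not separate them.

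Genes known from their place in the liver lobule moved in both directions in HFD against chow. Of 16 pericentral genes, where many P450 genes are expressed, 2 were lower and 2 higher in HFD than in chow. Among all probes 6.1% were lower and 3.88% higher. Of the pericentral genes, Cyp1a2 was among the lower ones, and Glul, the glutamine synthetase of the hepatocytes next to the central vein, was higher at 0.61. Of the 16, 7 were lower and none higher in HFD+1B than in HFD, where 8.01% of all probes were lower and 9.92% higher. They were led by Cyp7a1, the rate-limiting enzyme of bile acid synthesis, at -2.47 and the transcription factor Tbx3 at -1.22. Over 12 of the genes the mean relative to chow was -1.22 to -0.51 in HFD+1B and -0.18 to -0.10 in HFD livers. In HFD+1B against 1B, 4 were lower and 2 higher, where 4.71% and 5.31% of all probes were. Of 15 periportal genes, 1 was higher and 1 lower in HFD, and 3 were higher and 1 lower in HFD+1B against HFD, led by the serine dehydratase Sds at 2.97.

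Among the genes outside the family, 5 had the most similar pattern over the 17 mice, measured as Pearson correlation with the mean of the 7 member genes that had a value on every array. Those members were Cyp2c38, Cyp2c39, Cyp2c40, Cyp2c44, Cyp2c54, Cyp2c55, and Cyp2c70. Cyp2c29 and Cyp2c37 were thus not in the mean, and Cyp2c38, which went the other way on HFD, was. The 5 similar genes were Fetub (0.976), Ces2c (0.974), Slc22a30 (0.969), Lifr (0.964), and Cyp4a12b (0.956), out of 23221 probes ranked. The mean log2 ratio of Lifr, the receptor of leukemia inhibitory factor, was 0.74 in the chow, 0.47 in the 1B, -0.62 in the HFD, and -1.32 in the HFD+1B group. For Fetub, a plasma protein made by hepatocytes, it was 0.33, 0.28, -0.31, and -0.61. The points share 4 groups, so these values describe the group pattern and carry no test.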

How the data were processed

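Livers of 17 mice were hybridized in Cy5 on 2-color arrays against a common Cy3 reference, without a dye swap, on 5 slides that each held several groups. The authors deposited raw scanner intensity per spot (Agilent Feature Extraction 11.5.1.1) and a log2 ratio table of processed signals, in which every value column could be assigned to a mouse. Background was corrected with normexp (offset 50), ratios were normalized by loess within arrays, outlier spots were left out, and spots of 1 probe were averaged. A probe was tested where its Cy5 signal was marked well above background on 4 or more arrays and no group lacked a value (34664 probes) with limma 3.58.1 in R 4.3.3 on all 17 arrays (lmFit, eBayes). A call is a Benjamini-Hochberg adjusted p of 0.05 or less. The fit was tested on simulated data.

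The members and lists were chosen with earlier results of these data known. All probes of each member are reported. A gene is represented by the probe with unflagged spots on most arrays, then the brighter one. Of other lists, up to 3 called genes with the largest difference per comparison, and genes that answer a question of the text, are named. The array was annotated on an older build (mm9) than the RefSeq table, and probe positions were not used. No source says that replicate mice share litter or cage. The precision rests on the number of arrays.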

Additional observations from a re-analysis of the deposited data

Results flagged for a closer look

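In 2 of 42 sets of 4 or 5 livers, 1 liver stood far from the others of its group, about as many as chance gives at 1 in 20 sets. For Cyp2c37, chow mouse 1 read 1.87 and the next highest chow liver 1.13, a gap of 0.896 of the range of the group. For the brighter Cyp2c38 probe, chow mouse 3 read 0.24 and the next highest 0.02, a gap of 0.837 of the range.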

How the results depend on the processing

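All 16 differences called for the main probe of a gene kept their direction in all 29 to 31 alternatives, and 9 kept their call in all of them. The call was lost for Cyp2c38 in 11 alternatives, Cyp2c37 in 2, and Cyp2c54 in 1 in HFD against chow, for Cyp2c40 in 3 in HFD+1B against HFD, and for Cyp2c70 in 2 (1 of them without 1B mouse 2) and Cyp2c40 and Cyp2c55 in 1 each in HFD+1B against 1B. The counts of called probes moved as follows. In 1B against chow the 1 call became 0 in the log2 ratio table of the authors, with Cy5 signal alone, with a fold change of at least 2, and in the Tukey test of the methods after a Benjamini-Hochberg adjustment made here, and 2 with probes above background on all 17 arrays and in the unadjusted Tukey test; without single mice it was 0 to 2. In HFD against chow the 7 became 4 in the adjusted Tukey test, 5 with the fold threshold, 9 with slide as a block, and 6 to 8 without single mice. In HFD+1B against HFD the 3 became 5 without background subtraction, 5 with probes above background on all arrays, 1 with Cy5 signal alone, and 1 with the fold threshold, and 3 to 7 without single mice. In HFD+1B against 1B the 9 became 7 with Cy5 signal alone, with the fold threshold, and in the adjusted Tukey test, and 8 to 9 without single mice. In the interaction the 0 became 1 without background subtraction, 1 with probes above background on all arrays, 2 with slide as a block, and 0 to 1 without single mice. Mice with the same replicate number had correlations of deviations of -0.13 to 0.48, over 0.1 in 16 of 24 pairs and not in all, so the numbers were not taken to pair the mice. The mice numbered 1 were all on slide 1, and their pairs had 0.24 to 0.48. The lowest value belonged to 1B mouse 3 and HFD+1B mouse 3, on slides 3 and 4. Same-numbered mice that shared a slide had 0.14 to 0.48, except chow mouse 2 and HFD mouse 2, both on slide 2, which had -0.08. Same-numbered mice on different slides had -0.13 to 0.21. The main fit has no slide term, and the part of the slide in these correlations was not tested. With a replicate block the counts were 1, 8, 4, 9, and 0, with the dimmer Cyp2c38 probe added in HFD against chow (adjusted p = 0.0301, limma) and Cyp2c44 in HFD+1B against HFD (adjusted p = 0.0361, limma). Reversed values belonged to differences that were not called: with median centring Cyp2c55 in HFD+1B against HFD (0.0904) and the interactions of Cyp2c29 (0.26), Cyp2c37 (0.0887), Cyp2c38 (0.12), Cyp2c39 (0.14), and Cyp2c70 (0.17); Cyp2c55 in HFD+1B against HFD in the authors' table (0.15) and with Cy5 alone (0.12); and in 1B against chow with slide as a block Cyp2c29 (0.0039) and Cyp2c40 (0.0117). Without single mice, the sign turned for Cyp2c40 in 1B against chow (-0.20 to 0.0839), Cyp2c29 (-0.42 to 0.0018) and Cyp2c55 (-0.0769 to 0.0278) in HFD+1B against HFD, and the interaction of Cyp2c29 (-0.32 to 0.11). The causes were not tested. The second Cyp2c37 probe was added as an alternative after seeing the data.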
